A study of Mus musculus with 4 samples.

Results

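Glycosyltransferases that build mucin-type O-glycans, the branches of N-glycans and the ends of both were described across 4 RNA sequencing libraries. Members were the rows annotated as protein coding whose symbol begins with Galnt, B4galt, B4galnt, B3galt, B3galnt, B3gnt, St3gal, St6gal, St8sia, Fut, Mgat or Gcnt, in most cases followed by a digit. This gave 90 genes of 54532, with 89 symbols, since St6galnac2 stands under 2 gene identifiers. The irradiated group held 2 libraries, named A and B, from tumours that received 6 Gy of targeted radiation, which its treatment label places at day 6. The unirradiated group held 2 libraries, also named A and B. Both groups came from C57BL/6 mice with the MMTV-PyMT transgene, in which the mouse mammary tumour virus promoter drives the polyoma middle T oncogene, and both carry the label Dll1 mcherry+. All 4 titles carry day 6, but the labels do not say how long after radiation the cells were taken. They are labelled primary CAFs, fibroblasts associated with breast cancer, and the digested tumours were treated with an antibody to PDGFRa. No label says what A and B stand for, such as different mice or cultures; p-values therefore reflect the spread of these 4 libraries only, and that spread may be technical.

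Mucin-type O-glycans begin in the Golgi, where a polypeptide GalNAc transferase links N-acetylgalactosamine to serine or threonine, and core enzymes then extend and branch that sugar. N-glycans are transferred whole in the endoplasmic reticulum, trimmed, and rebuilt in the Golgi by the Mgat enzymes, which add N-acetylglucosamine (GlcNAc) branches. Galactosyltransferases extend these branches, and fucosyltransferases and sialyltransferases cap them, forming the epitopes that lectins such as selectins, galectins and Siglecs bind. In the mammary gland the same enzymes decorate mucins and milk proteins, and some members act on glycolipids or on the linker of proteoglycans instead.

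Total counts were 15817969 and 23763830 in irradiated A and B, and 17569515 and 13011489 in unirradiated A and B. Levels are counts scaled to library size (CPM, with TMM factors), on which 1 count was worth 0.0403 to 0.0809 CPM. The label of fibroblasts did not describe all the RNA: the 14 epithelial markers, of which 2 were higher and 9 lower, summed to 9138 to 9488 CPM in irradiated and 10131 to 10134 CPM in unirradiated libraries, while 12 fibroblast markers, of which 10 were higher and 0 lower, summed to 1728 to 1740.1 CPM in irradiated and 507 to 543 CPM in unirradiated libraries. Epcam, an epithelial adhesion molecule, had 1085 and 1129 CPM in irradiated and 1221 and 1201 CPM in unirradiated libraries. Pdgfra, the receptor the antibody binds, had 22.9 and 24.6 CPM in irradiated and 5.43 and 5.74 CPM in unirradiated libraries. The 12 macrophage and monocyte markers summed to 825 to 827 CPM in irradiated and 328 to 329 CPM in unirradiated libraries, and 11 of them were higher. For 10 endothelial markers, 9 of them higher, the sums were 194 to 205 CPM in irradiated and 90.3 to 93.0 CPM in unirradiated libraries. For 9 neutrophil markers, 8 of them tested with 1 higher and 4 lower, they were 2144 to 2146 CPM in irradiated and 376 to 382 CPM in unirradiated libraries. Ltf, lactoferrin, which mammary epithelium also makes, had 2087 and 2122 CPM of this in irradiated and 302.8 and 315.5 CPM in unirradiated libraries. The other 8 neutrophil markers summed to 57.1 and 24.0 CPM in irradiated and 73.4 and 66.6 CPM in unirradiated libraries. Milk and alveolar markers, 6 of 9 higher and 1 lower, summed to 4197 to 4334 CPM in irradiated and 6325 to 6396 CPM in unirradiated libraries. Without Csn3, the kappa-casein gene and the one that was lower, the other 8 summed to 1067 and 1059 CPM in irradiated and 569 and 571 CPM in unirradiated libraries, so 1 gene turned the direction of that sum. Among tested pericyte and smooth muscle markers 5 of 7 were higher and 0 lower. Of 10 T and NK cell markers 6 were tested, with 0 higher and 5 lower. Of 7 B and plasma cell markers 5 were tested, with 1 higher and 4 lower. Of 7 adipocyte markers 3 were tested, with 0 higher and 1 lower. Of 8 keratinocyte markers 6 were tested, with 0 higher and 4 lower. For comparison with these counts, 33.7% of all tested genes were higher and 32.1% lower by the test described below. No marker gene was at 0 in all 4 libraries. The part of these cell type markers in the results on glycosyltransferases was not tested, and in bulk RNA fewer cells of a type and less RNA per cell cannot be told apart.

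The tested glycosyltransferase transcripts were mostly more abundant in the irradiated libraries. Of the 90 members, 66 passed the filter on low counts, and among those 47 were higher, 6 were lower and 13 did not pass an adjusted p of 0.05 in edgeR's quasi-likelihood test, adjusted by Benjamini and Hochberg's method over 15961 genes, which gave all adjusted p-values here unless another tool is named. Of all tested genes 65.8% were called, 33.7% higher and 32.1% lower, and of the tested members 80.3% were called, 71.2% higher and 9.09% lower. The median log2 fold change, irradiated over unirradiated, was 0.65 over the tested members and -0.005 over all tested genes. Counts and median depend on the filter. B4galnt2, B3galnt1 and St6galnac3, with 9, 7 and 2 unirradiated counts, passed it through the irradiated libraries. It left out Fut7, with 2 irradiated and 19 unirradiated counts, B3gnt6, with 7 and 23, and Galnt14, with 30 and 0. At least 2-fold changes were seen for 24 higher and 3 lower members, where 10.8% and 10.1% of all tested genes passed the same limits. Another 9 members were higher by 1.5 to 2-fold and 14 by less than 1.5-fold. For all 53 called members the libraries of the groups did not overlap. Among all 66 tested members, every irradiated library was above every unirradiated one for 49 and below for 7, while 82.5% of all tested genes did not overlap, 41.5% above and 40.9% below. Of the 24 members not tested, 9 had a higher mean level in irradiated libraries, 11 a lower one, and 4 had 0 counts throughout. Summed over the 90 members, the level was 1989 and 1943 CPM in irradiated libraries and 1413 and 1428 CPM in unirradiated libraries, a ratio of 1.38. With 2 libraries in each group an exact two-sided permutation test of such a sum cannot go below 0.333, so sums are given without a test.

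**Figure D1:**
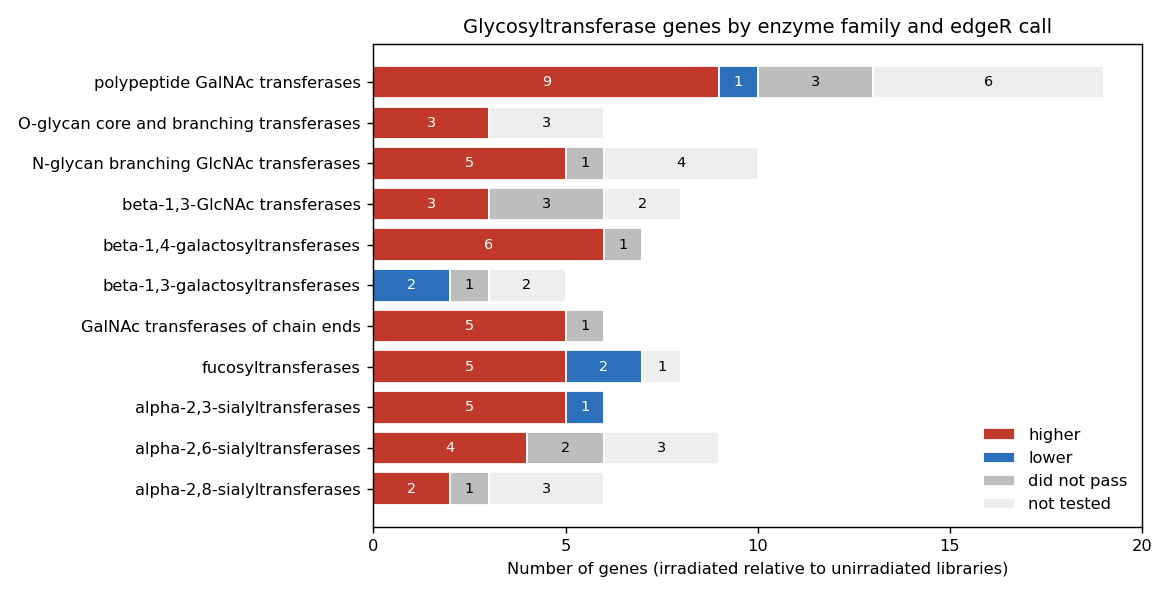
Calls by enzyme family, as stacked bars with the number of genes on one axis and the family on the other. Each bar splits a family's members into higher, lower, not past the threshold and not tested, and 47 members fall into the higher and 6 into the lower class.

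Promoter windows of members that changed are printed to show the sequence at the start of genes that moved together and of one that moved the other way. They are the 250 bases before the transcription start, 5′ to 3′ on the gene's strand, from RefSeq on GRCm38.p6, for the 4 largest rises and the largest fall among called members with a mean of at least 1 CPM, a single start in the table and that start within 30 bases of the deposited gene start. The windows lie at chr11:95914872-95915121 for B4galnt2, chr3:69598961-69599210 for B3galnt1, chr4:117883477-117883726 for B4galt2, chr1:95667595-95667844 for St8sia4 and chr17:33951489-33951738 for B3galt4, each on the minus strand. B3galt4 is the one that was lower. Capitals mark matches to the GC box GGGCGG or the CCAAT box CCAAT on either strand, so a match on the other strand reads CCGCCC or ATTGG.
B4galnt2: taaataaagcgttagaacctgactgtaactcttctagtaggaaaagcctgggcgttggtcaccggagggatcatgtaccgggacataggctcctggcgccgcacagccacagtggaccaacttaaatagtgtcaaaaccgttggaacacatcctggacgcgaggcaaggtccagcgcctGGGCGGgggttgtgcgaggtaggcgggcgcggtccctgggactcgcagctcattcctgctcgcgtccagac
B3galnt1: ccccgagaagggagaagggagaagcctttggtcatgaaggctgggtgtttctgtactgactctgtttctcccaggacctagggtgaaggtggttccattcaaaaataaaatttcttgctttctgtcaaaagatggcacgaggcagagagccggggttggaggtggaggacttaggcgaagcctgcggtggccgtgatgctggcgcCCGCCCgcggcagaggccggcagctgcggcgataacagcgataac
B4galt2: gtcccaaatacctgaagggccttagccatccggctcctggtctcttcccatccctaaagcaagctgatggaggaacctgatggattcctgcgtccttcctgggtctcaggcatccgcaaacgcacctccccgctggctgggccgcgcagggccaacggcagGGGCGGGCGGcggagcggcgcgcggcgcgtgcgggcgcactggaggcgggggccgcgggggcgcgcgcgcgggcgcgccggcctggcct
St8sia4: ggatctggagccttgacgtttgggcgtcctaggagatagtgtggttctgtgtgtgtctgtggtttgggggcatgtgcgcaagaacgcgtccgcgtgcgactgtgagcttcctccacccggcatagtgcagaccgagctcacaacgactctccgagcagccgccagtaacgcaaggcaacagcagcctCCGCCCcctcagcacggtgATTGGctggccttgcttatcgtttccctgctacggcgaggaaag
B3galt4: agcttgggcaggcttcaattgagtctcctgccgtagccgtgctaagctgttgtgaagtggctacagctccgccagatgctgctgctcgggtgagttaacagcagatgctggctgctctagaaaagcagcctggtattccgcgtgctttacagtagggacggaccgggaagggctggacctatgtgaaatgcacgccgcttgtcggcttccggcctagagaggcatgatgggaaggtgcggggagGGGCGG

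A GC box is in each of the 5 windows, the fall included, and the B4galt2 window has a pair that overlap each other. The St8sia4 window holds the one CCAAT box of the set. No match to the TATA box TATAAA, the STAT site TTCNNNGAA or the AP-1 site TGANTCA was found in these 5 windows, searched on both strands; no letters of one motif contain another. Of the 89 member symbols, 66 had a window in the table. A gene with several starts gave several windows. A GC box was in 53.1% of the 49 windows of 36 higher members and in 42.9% of the 7 windows of 4 lower members. It was in 32.7% of all 32851 windows, from 27025 genes, tested here or not. For the CCAAT box these shares were 36.7%, 28.6% and 33.8%, and for the TATA box 2.04%, 0% and 12.4%. The STAT site was in 6.12%, 0% and 7.02%, and the AP-1 site in 10.2%, 0% and 6.75%. A match describes letters and not a bound site, and the shares carry no test. The windows of all genes are not a background matched to the tested genes, so a difference from them cannot be credited to the members.

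The polypeptide GalNAc transferases, which start mucin-type O-glycans, had 19 members, of which 13 were tested, 9 were higher and 1 was lower. Their levels summed to 558 ± 4.01 CPM in irradiated and 416 ± 9.23 CPM in unirradiated libraries (SD, n = 2 each). Per kilobase of gene length, Galnt3 and Galnt1 had the highest levels of the family. Galnt3 (chr2:66082766-66124994) had 142 and 148 CPM in irradiated and 106 and 114 CPM in unirradiated libraries, a log2 fold change of 0.41 (SE 0.0546, adjusted p = 6.32e-09). Galnt1 had 132 and 131 CPM in irradiated and 111 and 98.7 CPM in unirradiated libraries, a log2 fold change of 0.32 (SE 0.0563). Both were higher by less than 1.5-fold, with no overlap of the groups. Several initiators of lower level had larger fold changes. Galnt18 (chr7:111471661-111779977) had 38.2 and 37.3 CPM in irradiated and 13.1 and 12.8 CPM in unirradiated libraries, a log2 fold change of 1.54 (SE 0.1002, adjusted p = 4.74e-19). Galnt15 had 6.55 and 5.04 CPM in irradiated and 1.91 and 2.10 CPM in unirradiated libraries (log2 fold change 1.52, SE 0.256), and Galnt16 had 3.31 and 3.55 CPM in irradiated and 1.25 and 0.971 CPM in unirradiated libraries (1.60, SE 0.329). Galnt17 summed to 79 counts in irradiated and 16 in unirradiated libraries, a scaled ratio of 3.47 with a 95% exact binomial interval of 2.01 to 6.37. Both libraries of each group stood on the same side for these 4 genes.

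Galnt12 (chr4:47091909-47123070), an initiator best known from the human colon, was the family's single fall. It had 6.07 and 7.71 CPM in irradiated and 20.5 and 21.7 CPM in unirradiated libraries, a log2 fold change of -1.59 (SE 0.136, adjusted p = 1.1e-14). Per kilobase its level was 3.01 CPM in irradiated libraries and 9.22 CPM in unirradiated libraries. The other higher initiators were Galnt10, Galnt7 and Galnt4, with log2 fold changes of 0.66, 0.35 and 0.51. Galnt11, Galnt2 and Galnt6 did not pass the test, with log2 fold changes of -0.13, 0.71 and 0.38 (adjusted p = 0.265, 0.0798 and 0.279). Galnt2 shares 90.0% of its exon bases with a predicted gene on the same strand that had 0 counts in every library. Reads there may have gone uncounted, since the counting settings are not given, so the Galnt2 level may be too low. Galnt14 was not tested; it had 30 counts in irradiated and 0 in unirradiated libraries, which makes it at least 7.03-fold higher when 3 counts are taken as the floor of the unirradiated group. Galnt9, also not tested, had 16 counts in irradiated and 23 in unirradiated libraries, a ratio of 0.489 (interval 0.2415 to 0.967). Galnt5, Galnt13, Galntl5 and Galntl6 were below the filter as well.

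O-glycan core and branching enzymes formed the family with the largest median change among the 11, 2.58 on the log2 scale over 3 tested members, all higher. That median depends on the filter: it includes Gcnt4, with few unirradiated counts, and leaves out 3 members below the filter, B3gnt6 with fewer irradiated counts among them. Gcnt2 (chr13:40859754-40960892), which makes the I branch on lactosamine chains, had 26.8 and 29.5 CPM in irradiated and 5.31 and 3.96 CPM in unirradiated libraries, a log2 fold change of 2.58 (SE 0.138, adjusted p = 2.44e-22). Gcnt4 (chr13:96924689-96950906), a core 2 branching enzyme, had 5.65 and 4.48 CPM in irradiated and 0.895 and 0.405 CPM in unirradiated libraries. Its 205 counts in irradiated and 20 in unirradiated libraries give a scaled ratio of 7.21 (interval 4.55 to 12.1), and the fitted log2 fold change was 2.87, or 3.61 without unirradiated A. Both branching enzymes were thus low in each unirradiated library and higher in each irradiated one. Gcnt1, the main core 2 enzyme, had the highest level of the family per kilobase, 4.90 CPM in irradiated and 3.14 CPM in unirradiated libraries. It had 27.6 and 27.0 CPM in irradiated and 17.1 and 17.9 CPM in unirradiated libraries, a log2 fold change of 0.64 (SE 0.101). B3gnt6, which makes core 3, was not tested; its 7 counts in irradiated and 23 in unirradiated libraries give a ratio of 0.214 (interval 0.0776 to 0.515). Gcnt7 was below the filter and Gcnt3 had 0 counts in all libraries. The core 1 synthase C1galt1, which makes the base these enzymes branch, had 54.5 and 50.6 CPM in irradiated and 36.6 and 36.1 CPM in unirradiated libraries (log2 fold change 0.53). Its chaperone C1galt1c1 did not pass the test (log2 fold change -0.13, adjusted p = 0.313).

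Of the 10 N-glycan branching enzymes, 6 were tested and 5 were higher. Mgat1, which starts hybrid and complex N-glycans, had 66.1 and 65.4 CPM in irradiated and 52.3 and 50.8 CPM in unirradiated libraries (log2 fold change 0.35, SE 0.0671). Mgat2, which starts the next antenna and had the highest level of the family per kilobase, had 89.1 and 84.5 CPM in irradiated and 84.2 and 89.0 CPM in unirradiated libraries. Its groups overlapped, and its log2 fold change was 0.003 (SE 0.0589, adjusted p = 0.968). Mgat3 (chr15:80173721-80215519), which adds the bisecting GlcNAc, had 3.97 and 5.04 CPM in irradiated and 1.43 and 0.809 CPM in unirradiated libraries, a log2 fold change of 1.97 (SE 0.312, adjusted p = 3.02e-07). Mgat4a and Mgat4b, which make the same further branch, had log2 fold changes of 0.75 and 0.56. Mgat5, whose branch carries much of the polylactosamine on N-glycans, had a log2 fold change of 0.39 (SE 0.0993, adjusted p = 0.000537), which became 0.16 (adjusted p = 0.160) once the trend of fold change with gene length was removed. Every branching enzyme that was called was therefore higher, and Mgat3 by the largest fold. Mgat5b, Mgat4c, Mgat4d and Mgat4e were below the filter, with 6 counts in irradiated and 13 in unirradiated libraries for Mgat5b.

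Chain extension was divided among galactosyltransferases and GlcNAc transferases. Of 7 beta-1,4-galactosyltransferases, 6 were higher and none was lower. B4galt1 (chr4:40804602-40854005), which makes lactosamine and, with alpha-lactalbumin, the lactose of milk, had 158 and 154 CPM in irradiated and 125 and 125 CPM in unirradiated libraries, a log2 fold change of 0.32 (SE 0.0522, adjusted p = 4.43e-07). B4galt2 (chr4:117869260-117883487), a related lactosamine enzyme, had 19.8 and 18.9 CPM in irradiated and 5.37 and 4.85 CPM in unirradiated libraries, a log2 fold change of 1.91 (SE 0.146, adjusted p = 2.34e-16). B4galt5, a lactosylceramide synthase, had 8.66 and 8.96 CPM in irradiated and 3.70 and 2.18 CPM in unirradiated libraries (log2 fold change 1.54, SE 0.215). None of these groups overlapped, and B4galt2 and B4galt5 had larger fold changes than B4galt1. Of the exon bases of B4galt2, 28.2% are shared with another gene. B4galt3, next to B4galt1 in level per kilobase, had 42.8 and 44.3 CPM in irradiated and 33.3 and 35.6 CPM in unirradiated libraries (log2 fold change 0.34). B4galt4 and B4galt6, the other lactosylceramide synthase, had log2 fold changes of 0.56 and 0.40. B4galt7, which acts on the linker of proteoglycans, did not pass the test (log2 fold change -0.02, adjusted p = 0.851).

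The beta-1,3-galactosyltransferases were the one family with a median below 0, -0.81 over 3 tested of 5 members, with 2 lower and 0 higher. The share called, 66.7%, was near the 65.8% of all tested genes. B3galt4 (chr17:33949909-33951477), the GM1 ganglioside synthase, had 2.53 and 2.78 CPM in irradiated and 6.14 and 6.63 CPM in unirradiated libraries, a log2 fold change of -1.25 (SE 0.229, adjusted p = 5e-06). B3galt6, which acts after B4galt7 on the proteoglycan linker, had 6.62 and 6.94 CPM in irradiated and 10.9 and 13.1 CPM in unirradiated libraries (log2 fold change -0.81, SE 0.158). B3galt5, which makes type 1 chains, had 15.2 and 14.2 CPM in irradiated and 14.3 and 14.6 CPM in unirradiated libraries (log2 fold change 0.02, adjusted p = 0.902). The groups overlapped for B3galt5 alone of these 3. B3galt1 and B3galt2 were below the filter, with 7 and 6 counts in irradiated and 1 and 1 in unirradiated libraries. Among 8 beta-1,3-GlcNAc transferases, 6 were tested, of which 3 were higher and 3 did not pass the test. Here 50% of the tested members were called, below the 65.8% of all tested genes. B3gnt3, which extends core 1, had 44.8 and 48.1 CPM in irradiated and 33.7 and 36.3 CPM in unirradiated libraries (log2 fold change 0.42, SE 0.0790). B3gnt7, an enzyme of keratan sulfate, had 3.61 and 5.20 CPM in irradiated and 1.97 and 2.27 CPM in unirradiated libraries (log2 fold change 1.09, adjusted p = 0.000478), and without irradiated B the change was 0.79 with an adjusted p of 0.0749. Its groups did not overlap, but 1 library decided the call. B3gnt2, a polylactosamine enzyme, had a log2 fold change of 0.87, and in DESeq2 it was 0.91 with an adjusted p of 0.0667. B3gnt2 shares 58.6% of its exon bases with a predicted gene on the same strand at 0 counts in every library, so its level may be too low. B3gntl1, B3gnt8 and B3gnt9 did not pass the test, with log2 fold changes of -0.37, -0.68 and -0.03 (adjusted p = 0.0676, 0.0845 and 0.954). B3gntl1, next to B3gnt3 in level per kilobase, had 5.53 and 6.62 CPM in irradiated and 8.65 and 7.12 CPM in unirradiated libraries. B3gnt5 and B3gnt4 were below the filter. For B3gnt5, 4 counts in irradiated and 14 in unirradiated libraries give a ratio of 0.201 (interval 0.0482 to 0.640), and B3gnt4 had 0 counts in all libraries.

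**Figure D2:**
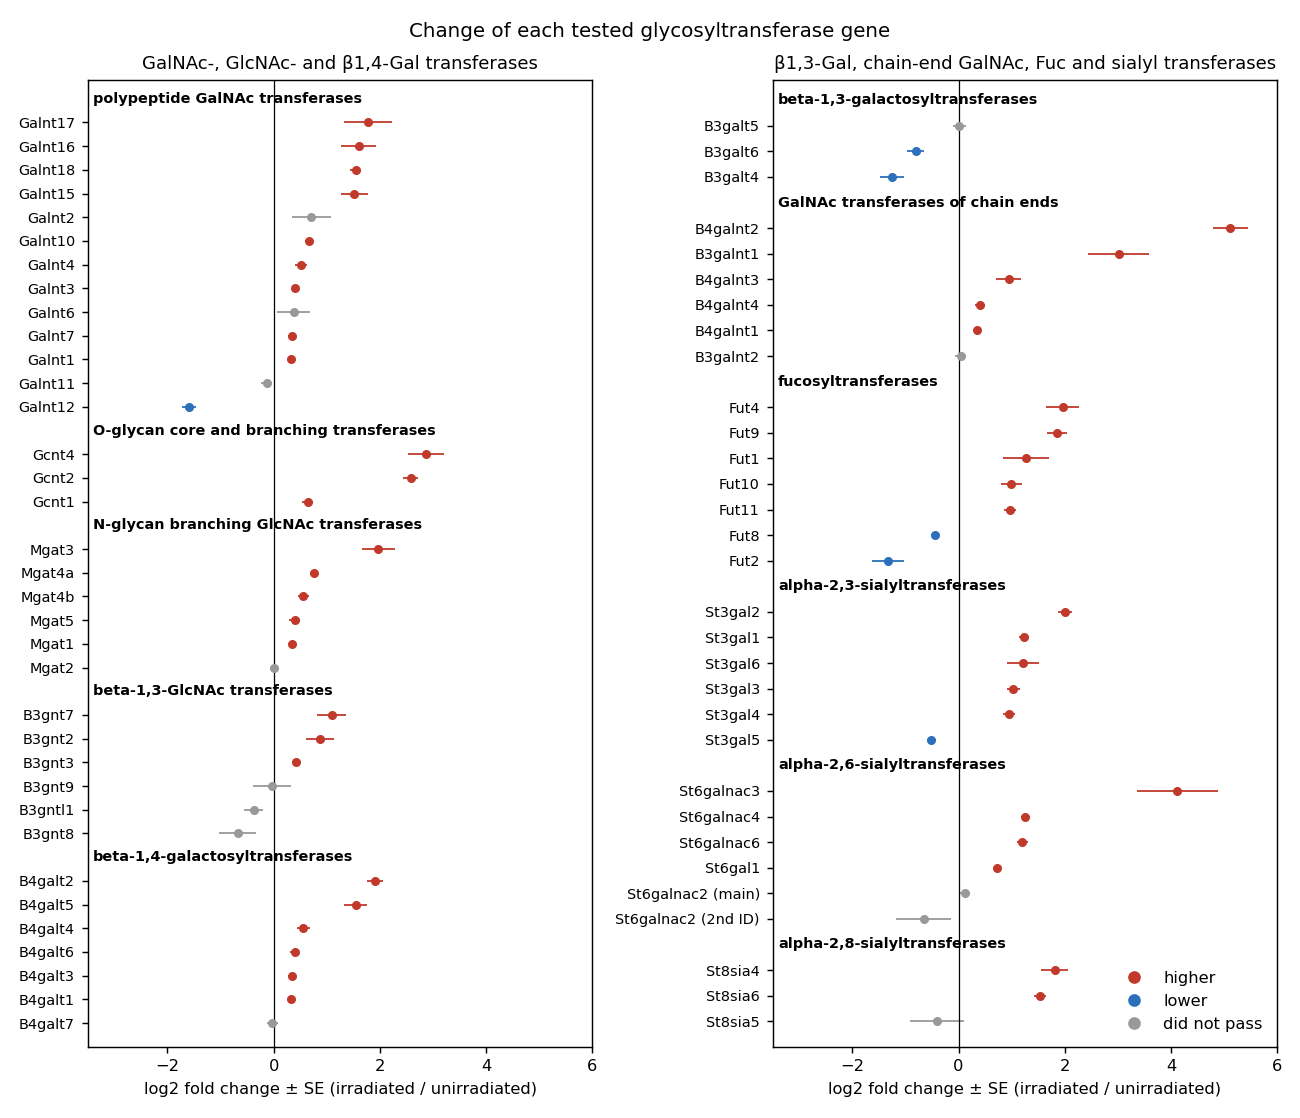
Log2 fold change, irradiated over unirradiated, of each of the 66 tested members by family, with bars of 1 standard error from the edgeR fit. Most points lie to the right of 0, B4galnt2 is farthest right at 5.12, and Galnt12 is farthest left at -1.59.

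GalNAc transferases that act on chain ends had 6 members, all tested, with 5 higher and 0 lower. B4galnt2 (chr11:95865943-95914891), which makes the Sda antigen on sialylated chains, had the largest log2 fold change of all tested members. It had 9.74 and 12.1 CPM in irradiated and 0.119 and 0.566 CPM in unirradiated libraries. Its 462 counts in irradiated and 9 in unirradiated libraries give a scaled ratio of 36.1 (interval 18.9 to 79.5), and the log2 fold change was 5.12 (SE 0.333, adjusted p = 4.85e-19). Both irradiated libraries were far above both unirradiated ones, and the size of the change rested on few unirradiated counts: it was 4.27 without unirradiated A and 6.46 without unirradiated B. Of the exon bases of B4galnt2, 15.3% are shared with another gene. B3galnt1 (chr3:69574158-69598960), the globoside synthase, had 2.95 and 1.21 CPM in irradiated and 0.239 and 0.243 CPM in unirradiated libraries. Its 79 counts in irradiated and 7 in unirradiated libraries give a ratio of 7.94 (interval 3.68 to 20.4), and its log2 fold change of 3.02 was 2.31 without irradiated A. The groups did not overlap, though the irradiated libraries differed widely from each other. B4galnt1 (chr10:127165225-127172330), the GM2 and GD2 ganglioside synthase, had the highest level per kilobase of the family, 41.4 CPM in irradiated and 32.3 CPM in unirradiated libraries. It had 144 and 142 CPM in irradiated and 109.9 and 113 CPM in unirradiated libraries (log2 fold change 0.36, SE 0.0535). Of its exon bases, 20.7% lie over Slc26a10 on the other strand, and the kit does not mark strand, so reads of such partners cannot be told apart. B4galnt4 and B4galnt3, which make LacdiNAc, were higher by 0.41 and 0.94 on the log2 scale, B4galnt4 with 32.1 and 33.0 CPM in irradiated and 23.0 and 26.5 CPM in unirradiated libraries. B3galnt2, an enzyme of alpha-dystroglycan, did not pass the test (log2 fold change 0.04, adjusted p = 0.733).

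Fucosyltransferases changed in both directions: of 8 members 7 were tested, and 5 were higher and 2 lower. Fut9, which makes the Lewis x epitope, had 12.4 and 11.8 CPM in irradiated and 3.46 and 3.16 CPM in unirradiated libraries, a log2 fold change of 1.86 (SE 0.183, adjusted p = 1.15e-12). Fut4, which makes related Lewis x epitopes in leukocytes, had 3.79 and 5.00 CPM in irradiated and 1.07 and 1.21 CPM in unirradiated libraries (log2 fold change 1.96, SE 0.311). The groups were well apart for both Lewis x enzymes. Fut7, which completes sialyl Lewis x in leukocytes, was not tested; its 2 counts in irradiated and 19 in unirradiated libraries give a ratio of 0.0740 (interval 0.00836 to 0.307). Fut2 (chr7:45648591-45666394) and Fut1 (chr7:45617289-45621059), the H antigen enzymes, lie 27.5 kb apart on opposite strands and were called in opposite directions. Fut2 had 1.62 and 1.53 CPM in irradiated and 4.35 and 3.48 CPM in unirradiated libraries (log2 fold change -1.33, SE 0.295, adjusted p = 0.000112). Fut1 had 1.86 and 1.86 CPM in irradiated and 0.477 and 1.13 CPM in unirradiated libraries (log2 fold change 1.27, SE 0.441, adjusted p = 0.0104). The Fut1 call was lost in DESeq2 (adjusted p = 0.132) and without unirradiated A, irradiated A or irradiated B (log2 fold change 0.71, 1.27 and 1.27, adjusted p = 0.198, 0.0515 and 0.0737), and without unirradiated B the change was 1.95. Fut8 (chr12:77238125-77476338), the single enzyme of core fucose on N-glycans, had 40.4 and 42.3 CPM in irradiated and 58.6 and 54.1 CPM in unirradiated libraries, a log2 fold change of -0.45 (SE 0.0730, adjusted p = 5.59e-07). Per kilobase Fut8 had 5.24 CPM in irradiated and 7.14 CPM in unirradiated libraries. Fut11 had 30.2 and 28.2 CPM in irradiated and 16.7 and 12.5 CPM in unirradiated libraries, a log2 fold change of 0.97, and the log2 fold change of Fut10 was 0.99.

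Sialyltransferases, which cap chains with sialic acid, numbered 21 in 3 families. Of 15 tested, 11 were higher and 1 was lower, where 33.7% of all tested genes were higher and 32.1% lower. In the alpha-2,6 and alpha-2,8 families 66.7% of the tested members were called, near the 65.8% of all tested genes. None of those was lower. Their summed level was 384 and 363 CPM in irradiated libraries and 202 and 219 CPM in unirradiated libraries, a ratio of 1.77. The alpha-2,3-sialyltransferases summed to 149 ± 5.13 CPM in irradiated and 91.1 ± 9.96 CPM in unirradiated libraries, and the alpha-2,6 family to 187 ± 8.88 CPM in irradiated and 106 ± 3.15 CPM in unirradiated libraries (SD, n = 2 each). The alpha-2,8 family summed to 36.6 ± 1.19 CPM in irradiated and 13.3 ± 0.988 CPM in unirradiated libraries. All 3 sums were higher in the irradiated libraries, with no overlap of the groups.

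St3gal1 and St3gal2 both cap core 1 O-glycans. St3gal1 had 47.1 and 42.6 CPM in irradiated and 17.5 and 20.6 CPM in unirradiated libraries, a log2 fold change of 1.24 (SE 0.0930, adjusted p = 1.03e-16). St3gal2 (chr8:110919922-110972480), which also acts on gangliosides, had 24.6 and 24.8 CPM in irradiated and 5.31 and 7.20 CPM in unirradiated libraries, a log2 fold change of 2.01 (SE 0.135, adjusted p = 2.05e-18). Each irradiated library was above each unirradiated one for both genes. St3gal3, St3gal4 and St3gal6 cap lactosamine. St3gal3 had 22.4 and 23.4 CPM in irradiated and 9.96 and 12.8 CPM in unirradiated libraries (log2 fold change 1.03, SE 0.121), and St3gal4 had 27.1 and 23.9 CPM in irradiated and 11.4 and 15.2 CPM in unirradiated libraries (0.95, SE 0.118). St3gal6 had 3.97 and 3.83 CPM in irradiated and 1.07 and 2.43 CPM in unirradiated libraries. Its log2 fold change of 1.21 (adjusted p = 0.000617) became 0.68 (adjusted p = 0.0541) without unirradiated A and 1.86 without unirradiated B, and 26.0% of its exon bases lie over Dcbld2 on the other strand. St3gal5 (chr6:72097592-72154571), the GM3 ganglioside synthase, was the one member of its family that was lower: it had 28.0 and 27.3 CPM in irradiated and 38.8 and 40.0 CPM in unirradiated libraries, a log2 fold change of -0.51 (SE 0.0843, adjusted p = 7.63e-07).

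St6gal1 (chr16:23224740-23360350), which caps N-glycans with alpha-2,6-linked sialic acid, had the highest level per kilobase of its family, 16.3 CPM in irradiated and 9.78 CPM in unirradiated libraries. It had 85.3 and 75.0 CPM in irradiated and 48.7 and 47.5 CPM in unirradiated libraries, a log2 fold change of 0.73 (SE 0.0688, adjusted p = 2.69e-13). St6galnac4 and St6galnac6, which sialylate O-glycans and gangliosides, are neighbours on chromosome 2 with 10 bases between them on the same strand, and both were higher. St6galnac4 (chr2:32587095-32599698) had 50.5 and 49.2 CPM in irradiated and 19.6 and 22.4 CPM in unirradiated libraries, a log2 fold change of 1.26 (SE 0.0871, adjusted p = 5.66e-18). St6galnac6 (chr2:32599709-32620806) had 32.5 and 29.7 CPM in irradiated and 14.3 and 12.5 CPM in unirradiated libraries, a log2 fold change of 1.20 (SE 0.106). The 2 neighbours changed by nearly equal folds. St6galnac3 was higher at low depth, with 55 counts in irradiated and 2 in unirradiated libraries, a ratio of 19.3 (interval 5.11 to 164). St6galnac2 did not pass the test under either gene identifier (log2 fold change 0.12 and -0.66, adjusted p = 0.321 and 0.267), and its identifiers overlap, so reads could be divided between them. St6gal2, St6galnac1 and St6galnac5 were below the filter.

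St8sia6 (chr2:13651021-13794064), which adds alpha-2,8-linked sialic acid to O-glycans, had 29.9 and 27.8 CPM in irradiated and 9.96 and 9.87 CPM in unirradiated libraries, a log2 fold change of 1.54 (SE 0.114, adjusted p = 6.67e-17). St8sia4 (chr1:95587682-95667571), a polysialic acid synthase, had 6.68 and 6.17 CPM in irradiated and 1.73 and 1.94 CPM in unirradiated libraries (log2 fold change 1.81, SE 0.250, adjusted p = 1.36e-08). Replicates lay close together in both groups for these genes. St8sia5 did not pass the test (log2 fold change -0.41, adjusted p = 0.494), and its groups overlapped. St8sia1, the GD3 synthase, and St8sia2, the other polysialic acid synthase, were below the filter, with 4 and 21 counts in irradiated and 9 and 8 counts in unirradiated libraries, and St8sia3 had 0 counts in all libraries. The St8sia2 counts were 3 in irradiated A and 18 in irradiated B. Its groups overlapped, and its scaled ratio was 1.85 (interval 0.785 to 4.82).

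**Figure D3:**
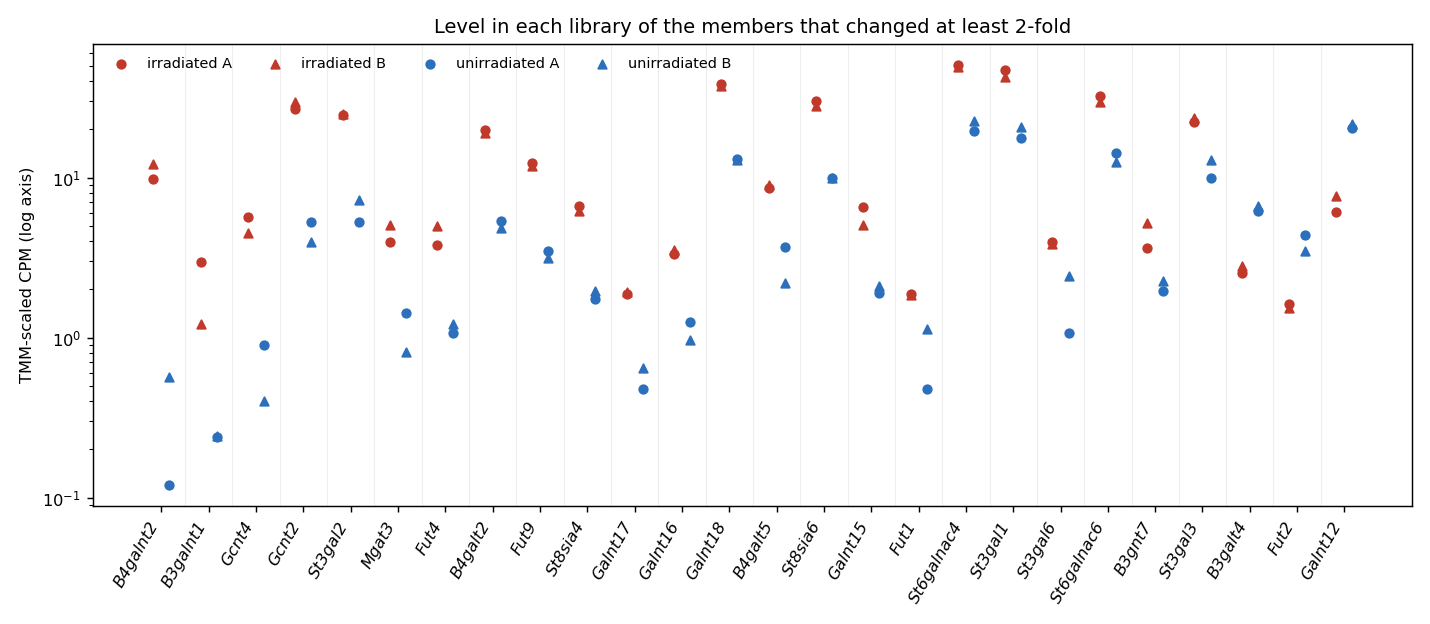
Level in CPM on a log axis of the 26 members that were called with at least a 2-fold change and a mean of at least 1 CPM, one point per library. Irradiated points lie above unirradiated points for 23 genes and below them for Galnt12, B3galt4 and Fut2.

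Sialyltransferases use sialic acid that is made and activated by a short route, of which Gne, Nans and Cmas were lower in the irradiated libraries. Gne (chr4:44034075-44084177), the bifunctional enzyme that starts sialic acid synthesis, had 110.4 and 109 CPM in irradiated and 400.3 and 412 CPM in unirradiated libraries, a log2 fold change of -1.89 (SE 0.0476, adjusted p = 2.15e-36). The next genes of the route were named after their values were seen. Nans, the sialic acid synthase, had 91.4 and 97.9 CPM in irradiated and 166 and 185 CPM in unirradiated libraries (log2 fold change -0.88, SE 0.0559). Cmas, which activates sialic acid with CMP, had 110.0 and 117 CPM in irradiated and 208 and 206 CPM in unirradiated libraries (log2 fold change -0.86, SE 0.0515). All 3 were lower with no overlap of the groups, while Slc35a1, which carries CMP-sialic acid into the Golgi, did not pass the test (log2 fold change 0.02, adjusted p = 0.801). Nanp, the phosphatase of the route, was below the filter with 10 counts in irradiated and 9 in unirradiated libraries.

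**Figure D4:**
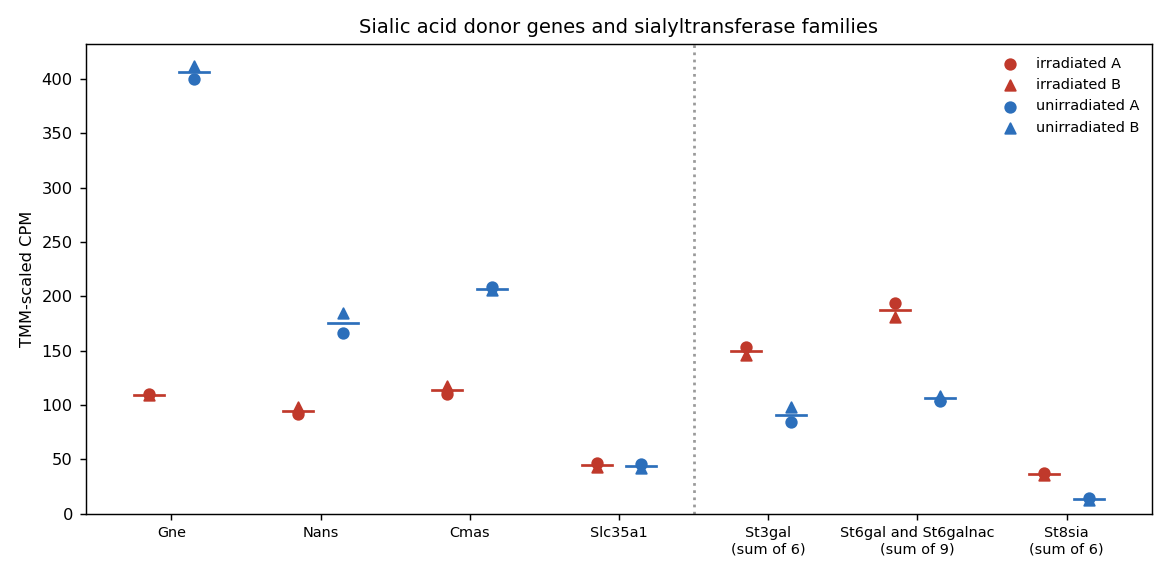
Level in CPM per library of Gne, Nans, Cmas and Slc35a1 and of the summed sialyltransferase families, with bars at the group means. Gne, Nans and Cmas are lower and the sialyltransferase sums higher in irradiated libraries, and Slc35a1 did not pass the test.

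Other genes of the pathway were taken from lists by function, of which 122 genes were tested. In all 52 of these (42.6%) were higher and 39 (32.0%) were lower, against 33.7% and 32.1% of all tested genes, so the lower share was at the background. Of 16 tested genes of nucleotide sugar synthesis, 5 were higher and 7 lower (median log2 fold change -0.02): Gfpt2, of hexosamine synthesis, was higher with 23.5 and 22.6 CPM in irradiated and 6.92 and 8.50 CPM in unirradiated libraries. Of 10 Golgi nucleotide sugar transporters, 3 were higher and 4 lower (median 0.07), with Slc35a3, the UDP-GlcNAc transporter, at 0.67 and Slc35d2 at -1.40. The share of transporters called was 70%, near the 65.8% of all tested genes. Of 19 genes of the dolichol-linked precursor, which act early on the N-glycan route in the endoplasmic reticulum, 4 were higher and 8 lower (median -0.04), with Alg6 at 0.72 and Alg5 at -0.97. Of these genes 63.2% were called, near the 65.8% of all tested genes. Of 12 oligosaccharyltransferase subunits, 5 were higher and 6 lower (median -0.16), with Tusc3 at 0.52 and Krtcap2 at -0.55. Of 13 genes listed with N-glycan trimming, 9 were higher and 4 lower (median 0.19). The list includes Uggt1 and Prkcsh, which do not trim themselves and were both higher, by 0.26 and 0.18 on the log2 scale. Man1a, a Golgi mannosidase, had 112 and 109 CPM in irradiated and 34.8 and 31.0 CPM in unirradiated libraries (log2 fold change 1.73), and Man2a2, which trims after Mgat1, had 50.6 and 51.8 CPM in irradiated and 15.7 and 15.6 CPM in unirradiated libraries (1.71). The groups were far apart for both mannosidases.

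The remaining lists held acceptors, modifiers and readers of these glycans. Of 11 tested mucins and mucin-like glycoproteins, 7 were higher and 1 lower (median 0.32). Podxl, a sialomucin of vessels and epithelia, had 102 and 104 CPM in irradiated and 41.6 and 41.4 CPM in unirradiated libraries (log2 fold change 1.31), and Muc13 and Cd34 had log2 fold changes of 1.98 and 1.78. Muc1, a mucin of the mammary gland, was the one that was lower, with 102 and 98.1 CPM in irradiated and 122 and 126 CPM in unirradiated libraries (log2 fold change -0.31). Muc15, at a similar level, was higher, with 109 and 110 CPM in irradiated and 70.4 and 74.7 CPM in unirradiated libraries (log2 fold change 0.60). Of 7 tested sulfotransferases and sialic acid modifiers, 4 were higher and 1 lower: Chst1, which sulfates galactose, had 13.3 and 13.6 CPM in irradiated and 2.33 and 1.94 CPM in unirradiated libraries (2.63), and Cmah, which makes the glycolyl form of sialic acid, had a log2 fold change of 1.77. Of 15 tested sialidases and glycosidases, 7 were higher and 2 lower (median 0.14), with Engase at -0.91. The share of them called was 60%, below the 65.8% of all tested genes. Of 17 tested lectins, 7 were higher and 6 lower (median 0.25). Siglec1, a sialic acid receptor of macrophages, had 5.65 and 5.49 CPM in irradiated and 1.85 and 0.405 CPM in unirradiated libraries (log2 fold change 2.19), and Sele, E-selectin of endothelium, had a log2 fold change of 1.84. Lgals7, a galectin of stratified epithelium, had 84.4 and 97.2 CPM in irradiated and 401 and 419.9 CPM in unirradiated libraries (-2.17). Macrophages, endothelium and stratified epithelium are known sources of these 3 lectins. Of the tested markers of those cells, 11 of 12 macrophage and 9 of 10 endothelial genes were higher and 4 of 6 keratinocyte genes lower. Over all tested genes 33.7% were higher and 32.1% lower. The share of keratinocyte markers called, 66.7%, was near the 65.8% of all tested genes, and their log2 fold changes ran from -3.54 to 1.21. The part of these cells here was not tested.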

How the data were processed

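Poly(A) RNA of 4 libraries was sequenced from non-directional libraries, per the labels' protocols. The authors deposited raw counts, as whole numbers for each gene, and per the file headers coordinates and a gene length in bases. STAR 2.5, HTSeq 0.6.1, DESeq2 and the mm10 genome are named in the submitters' processing notes, while annotation release and counting settings were not given in the sources used here. Reads of near-identical or overlapping genes may be divided or left uncounted.

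Groups were taken from the labels. The median chi-square statistic over its expectation was 2.11 for the unirradiated pair and 2.14 for the irradiated pair, and each library was kept as a replicate. Such a ratio cannot show whether A and B are independent mice or technical repeats. The common coefficient of variation in the edgeR fit was 3.86%. No batch is labelled, and one that coincided with irradiation cannot be told apart from it. Counts were tested with edgeR 4.0.16 in R 4.3.3 (filterByExpr, TMM, quasi-likelihood F-test, Benjamini-Hochberg adjustment over 15961 genes, threshold 0.05), with 2 residual and 46.9 prior degrees of freedom. Standard errors were computed as the log2 fold change, without its sign, divided by the root of the F statistic. The functions were also tested on simulated data. The full stop that ends the name pattern was read as the end of its sentence. Members and lists were chosen with earlier results of these data known. Values are given for members called with at least a 2-fold change and a mean of at least 1 CPM, for the 2 members of each family highest per kilobase, and for up to 3 called genes of each list, the text giving the leading ones; some genes of the lists are not reported here. The genes Nans, Cmas, Slc35a1, Nanp, Muc15 and several members outside these rules were named after their values were seen. Where a group held 20 counts or fewer, ratios of counts carry 95% exact binomial intervals, which like the floor of 3 counts cover counting error only. Of the members, 86 have identical coordinates in GENCODE M21 on GRCm38, and 16 tested members share over 10% of their exon bases with another gene. The alternatives tried were upper-quartile and RLE scaling, no filter and a stricter filter, DESeq2 1.42.0, a replicate block by letter, the fit without each library, removing the trend with gene length, a threshold of 0.1 and a test against 1.5-fold. Removing the trends with gene length and GC content was added after seeing the data.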

Additional observations from a re-analysis of the deposited data

How the results depend on the processing

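Of 97 named genes followed in 12 alternative fits, 83 were called, 0 of those reversed and 6 were lost somewhere: Fut1, B3gnt2, St3gal6, B3gnt7, Mgat5 and Ost4. Members called numbered 46 to 48 higher and 6 to 8 lower over scaling, DESeq2, the filters, the length and GC trends, the threshold of 0.1 and the replicate block, and 46 to 49 higher and 6 to 8 lower with 1 library left out. With the replicate block 47 members were higher and 6 lower; the letters are not stated to pair libraries, and the A minus B differences of the groups correlated at r = 0.0116 over 15961 genes. Against 1.5-fold, 28 members were higher and 3 lower, 2034 and 1725 of all genes, and 17 and 11 of the pathway lists; DESeq2 called 25 list genes lower. With 1 library left out 4833 to 5066 genes were higher and 4278 to 4586 lower, and 48 to 50 and 30 to 35 list genes. A lone library in a group is assumed to vary like the others. Some tested members not called in the main fit were called in another, 1 with upper-quartile scaling and 3 with the length trend removed. With GC removed as well, 3 were gained. Several genes not called in the main fit changed sign. With upper-quartile scaling Mgat2 was at -0.0416, B3galnt2 at -0.0004, B3galt5 at -0.0257 and Slc35a1 at -0.0206, in DESeq2 B4galt7 at 0.0051, without a filter B3gnt9 at 0.0349 and B4galt7 at 0.0371, with the stricter filter Mgat2 at -0.0151, and with the replicate block B3gnt9 at 0.0042. With the length trend removed B3gnt9 was at 0.13, St6galnac2 at -0.0089, B3galnt2 at -0.10, B4galt7 at 0.0737 and B3galt5 at -0.12, and with GC as well B3gnt9 at 0.16, B3galnt2 at -0.12, B4galt7 at 0.12 and B3galt5 at -0.12. With 1 library left out B3galnt2 ran from -0.0947 to 0.23, B3galt5 from -0.0081 to 0.0781, B3gnt9 from -0.73 to 1.01, B4galt7 from -0.12 to 0.0693, Mgat2 from -0.0372 to 0.054, Slc35a1 from -0.0312 to 0.11, St6galnac2 from -0.0149 to 0.24 and St8sia5 from -1.10 to 1.29. Ost4, an oligosaccharyltransferase subunit called at -0.53, was at -0.15 without the length trend (adjusted p = 0.115). The causes were not tested. Depth limits the 24 members below the filter, none of which exceeded 1.08 CPM in a library.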
